A study of Mus musculus with 10 samples.

Results

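Red cell transcripts were measured in the hearts of 10 Rit1 M90I/+ mice, 5 given vehicle control and 5 given the MEK inhibitor (MEKi) trametinib. They are the rows of 6 genes, out of 54532 in the table of expression values: the adult alpha-globins Hba-a1 and Hba-a2, the adult beta-globins Hbb-bs and Hbb-bt, the haem synthesis enzyme gene Alas2 and the anion exchanger gene Slc4a1. These genes were picked from measured values of these same hearts, in which they vary together, so their shared variation and their group values are given as a description. Daily doses of 1 mg/kg began at an age of 4 weeks and lasted 20 weeks in the MEKi group. Vehicle control mice went through the same 20 weeks without trametinib. All mice carried the heterozygous germline Rit1 M90I allele, made by crossing conditional males to females with a cytomegalovirus-Cre deleter transgene, so the variant was not limited to heart cells and no wild-type heart was among the groups. The labels name the tissue as heart, and the cardiomyocyte genes Myl2 and Actc1 were at 5574 ± 1361 and 5529 ± 727 FPKM with vehicle (SD, n = 5).

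Haemoglobin is a tetramer of alpha and beta chains, each holding a haem group, and it fills the circulating red cell. Mammalian red cells have lost their nucleus, and the youngest of them, reticulocytes, still carry the messenger RNA made by their nucleated precursors. Alas2 encodes the rate-limiting enzyme of haem synthesis in erythroid cells, and Slc4a1 encodes band 3, the membrane protein that exchanges chloride for bicarbonate. A healthy adult heart does not make red cells, but blood fills its chambers and vessels. In bulk tissue, fewer cells of a type and less RNA per cell cannot be told apart. Whether the hearts were flushed of blood was not given in the sources used here.

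The globin genes lie in 2 clusters. Hbb-bt (103812524 to 103813996) and Hbb-bs (103826534 to 103828096) are on the minus strand of chromosome 7 (GRCm38). Their lower coordinates, which are the downstream ends on that strand, are 14010 bases apart. Hba-a1 (32283511 to 32284465) and Hba-a2 (32296489 to 32297298) are on the plus strand of chromosome 11, with starts 12978 bases apart. Slc4a1 (102348824 to 102366203, minus strand) is elsewhere on chromosome 11, and Alas2 (150547375 to 150570638, plus strand) is on chromosome X. The sequence just upstream of each start is shown as a description only, and its part in the shared variation was not tested. The letters are the 150 bases before the RefSeq start on the gene's strand (GRCm38.p6), which overlap the deposited gene model where that model begins further upstream. Capitals mark the elements searched on both strands, all known from globin promoters. A GATA element, bound by GATA factors, was taken as AGATAA or, with another first base, as TGATAA. The others were the CACCC box, the promoter element spelled CCAAT, and the core promoter element spelled TATAA. Overlapping matches run together in 1 block of capitals.
Hbb-bs, chr7:103827929-103828078, minus: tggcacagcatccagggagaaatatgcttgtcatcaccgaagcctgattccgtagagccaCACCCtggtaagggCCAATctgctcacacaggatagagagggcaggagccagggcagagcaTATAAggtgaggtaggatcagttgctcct
Hbb-bt, chr7:103813924-103814073, minus: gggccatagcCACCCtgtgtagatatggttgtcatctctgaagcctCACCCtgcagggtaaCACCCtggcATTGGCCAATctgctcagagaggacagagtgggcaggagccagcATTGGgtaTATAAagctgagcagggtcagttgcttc
Hba-a1, chr11:32283522-32283671, plus: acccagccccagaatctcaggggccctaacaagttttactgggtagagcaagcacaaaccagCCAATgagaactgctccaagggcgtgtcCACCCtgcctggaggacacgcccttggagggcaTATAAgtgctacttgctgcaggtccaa
Hba-a2, chr11:32296342-32296491, plus: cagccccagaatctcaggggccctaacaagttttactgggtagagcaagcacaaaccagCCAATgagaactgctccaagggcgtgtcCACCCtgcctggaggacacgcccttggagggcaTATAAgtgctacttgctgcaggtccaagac
Alas2, chrX:150547267-150547416, plus: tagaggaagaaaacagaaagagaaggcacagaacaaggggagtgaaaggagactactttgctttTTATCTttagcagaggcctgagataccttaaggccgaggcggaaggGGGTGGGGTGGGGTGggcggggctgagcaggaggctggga

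CACCC was in 5 of these 5 windows, against 37.4% of 32851 RefSeq windows of the same length. CCAAT and TATAA were each in the 4 globin windows (24.5% and 14.2% of all windows), and a GATA element was in 1, that of Alas2 (9.65% of all windows). TATAA began 27 to 30 bases before the start in each globin gene. The alpha-globin copies shared an unbroken run of 247 of their 250 upstream bases, whereas the longest run shared by the beta-globin copies was 14 bases. A match describes letters only. Slc4a1 was matched to no RefSeq window.

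The coding sequences of each pair are nearly the same, which bears on how reads were split between copies. Hbb-bs and Hbb-bt differ at 1 of 444 coding bases, and Hba-a1 and Hba-a2 at 1 of 429. The 60 coding bases around each difference (GENCODE M21 transcripts) are given with the differing base in capitals, with positions counted from 1 at the A of the start codon.
Hbb-bs, bases 385 to 444: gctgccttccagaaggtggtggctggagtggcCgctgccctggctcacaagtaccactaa
Hbb-bt, bases 385 to 444: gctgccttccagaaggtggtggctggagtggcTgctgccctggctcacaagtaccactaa
Hba-a1, bases 351 to 410: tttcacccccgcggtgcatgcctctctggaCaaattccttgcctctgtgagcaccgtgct
Hba-a2, bases 351 to 410: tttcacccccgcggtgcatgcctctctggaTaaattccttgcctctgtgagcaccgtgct

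Of all 100-base stretches of the Hbb-bs transcript, 62.6% were also in that of Hbb-bt, and 56.5% of those of Hba-a1 were in that of Hba-a2. How the counting treated such reads was not given in the sources used here, so the level of each copy is uncertain. If reads shared by both copies were left out, the totals of the pairs, and ratios built on them, would be affected as well, which was not tested.

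All 6 genes were higher in vehicle hearts 4 and 5 than in any of the other 8 hearts, and the same 2 hearts were the highest for 3.89% of the 12602 genes tested. Levels are in FPKM (fragments scaled by transcript length and by library size, with the authors' scaling), which allows genes to be compared per length. The order was Hbb-bs, Hba-a1, Hbb-bt, Hba-a2, Alas2, Slc4a1 in each of the 10 hearts. Across hearts the ranges of neighbours in this order overlapped, except that Slc4a1, at most 2.53 FPKM, lay below Alas2, at least 11.3 FPKM.

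**Figure D1:**
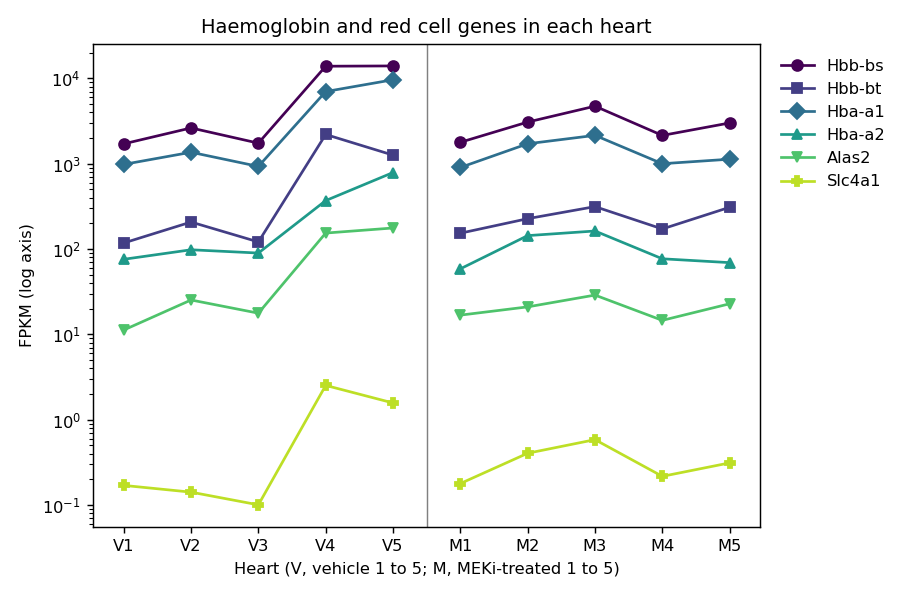
Expression of the 6 genes in each heart, in FPKM on a log axis; V1 to V5 are vehicle hearts, M1 to M5 are MEKi-treated hearts, and each line joins the values of 1 gene within a group only to guide the eye. All 6 lines peak at V4 and V5, with Hbb-bs at 13898 and 14004 FPKM, and keep their order in each heart.

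Among beta-globins, Hbb-bs, the most abundant transcript of the set, was at 1711, 2628, 1743, 13898 and 14004 FPKM in vehicle hearts 1 to 5. In MEKi-treated hearts 1 to 5 it was at 1785, 3079, 4729, 2147 and 3006 FPKM. Vehicle hearts 1 and 3 were the lowest of all, whereas vehicle hearts 4 and 5 were 4.93 and 4.97 times the median of the 10 hearts. Hbb-bs ranked between 7 and 31 among all genes of a heart. The other adult beta-globin, Hbb-bt, was at 118, 207, 121, 2203 and 1262 FPKM in vehicle hearts. In MEKi-treated hearts it was at 153, 227, 315, 172 and 309 FPKM. Vehicle heart 4 held the highest Hbb-bt level, well above vehicle heart 5, while the 2 hearts had near-equal Hbb-bs.

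Among alpha-globins, Hba-a1 was at 983, 1364, 931, 7014 and 9642 FPKM in vehicle hearts. In MEKi-treated hearts it was at 905, 1715, 2151, 1001 and 1131 FPKM. Vehicle hearts 1 to 3 lay inside the MEKi-treated range, and MEKi-treated hearts 2 and 3 were above those 3 hearts. Hba-a2 was at 75.9, 98.2, 89.8, 370.0 and 789 FPKM in the vehicle group, and at 58.7, 144, 163, 77.0 and 69.4 FPKM in MEKi-treated hearts. Here vehicle heart 5 was the highest, at 8.39 times the median of the 10 hearts against 3.94 times in vehicle heart 4. The highest MEKi-treated heart was heart 3 for each of the 4 globins.

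Alas2, the haem synthesis gene, was at 11.3, 25.3, 17.7, 154 and 177 FPKM with vehicle, and at 16.8, 21.03, 28.9, 14.6 and 22.9 FPKM in MEKi-treated hearts. Its lowest value was also in a vehicle heart, so the vehicle range enclosed the MEKi-treated range. Slc4a1, the band 3 gene, was at 0.170, 0.142, 0.101, 2.53 and 1.57 FPKM in the vehicle group, from 14, 10, 7, 172 and 112 fragments. In MEKi-treated hearts it was at 0.179, 0.405, 0.585, 0.217 and 0.312 FPKM, from 15, 34, 42, 19 and 24 fragments. Slc4a1 reached the minimum mean of 0.5 FPKM only through vehicle hearts 4 and 5, and its values elsewhere rest on few fragments. All 6 genes passed this minimum.

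Group comparison used log2(FPKM + 0.1) with limma and Benjamini-Hochberg adjustment over the 12602 genes whose mean reached 0.5 FPKM, among which 10 (0.0794%) passed an adjusted p of 0.05. None of the 6 genes passed (0 of 6 in limma, 0 of 6 with voom on the recovered fragments, and 0 of 6 at an unadjusted p under 0.05 in limma, which 7.62% of all genes tested passed), and for none were the groups separate (0 of 6, against 1.64% of all genes tested). The vehicle mean was the higher one for each gene. Hbb-bs averaged 6797 ± 6541 FPKM in the vehicle group, against 2949 ± 1139 FPKM under MEKi treatment (SD, n = 5), and its log2 fold change was -0.64 with an SE of 0.62 (limma, adjusted p = 0.839). Hba-a1 averaged 3987 ± 4074 and 1380 ± 533 FPKM (SD, n = 5), with a log2 fold change of -0.90 and an SE of 0.64 (limma, adjusted p = 0.777). In both cases the SD of the vehicle group was about as large as its mean, and the SD of the MEKi group was far smaller.

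The log2 fold change was -0.76 ± 0.76 for Hbb-bt, -0.95 ± 0.61 for Hba-a2, -1.06 ± 0.69 for Alas2 and -0.44 ± 0.71 for Slc4a1 (SE), with limma adjusted p from 0.757 to 0.921. The median of the 6 log2 fold changes was -0.83, beside 0.01 over all genes tested. These negative values rested on vehicle hearts 4 and 5. With both left out, an alternative added after seeing the data, the log2 fold change became 0.49 ± 0.30 for Hbb-bs, 0.65 ± 0.28 for Hbb-bt, 0.28 ± 0.29 for Hba-a1, 0.10 ± 0.33 for Hba-a2, 0.24 ± 0.28 for Alas2 and 0.82 ± 0.39 for Slc4a1 (SE). None of the 6 genes passed in that fit either. The 2 hearts left out were the highest for all 6 genes, so each estimate was bound to rise, and that fit is a description. The methods include male and female littermates. Treatment cannot be told apart from what divides the X- and Y-linked transcripts, and Alas2 is itself X-linked. MEKi-treated hearts had 1456 to 2199 fragments of Xist and vehicle hearts at most 2. The Y-linked Ddx3y had 814 to 901 fragments in vehicle hearts and 0 in each MEKi-treated heart.

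**Figure D2:**
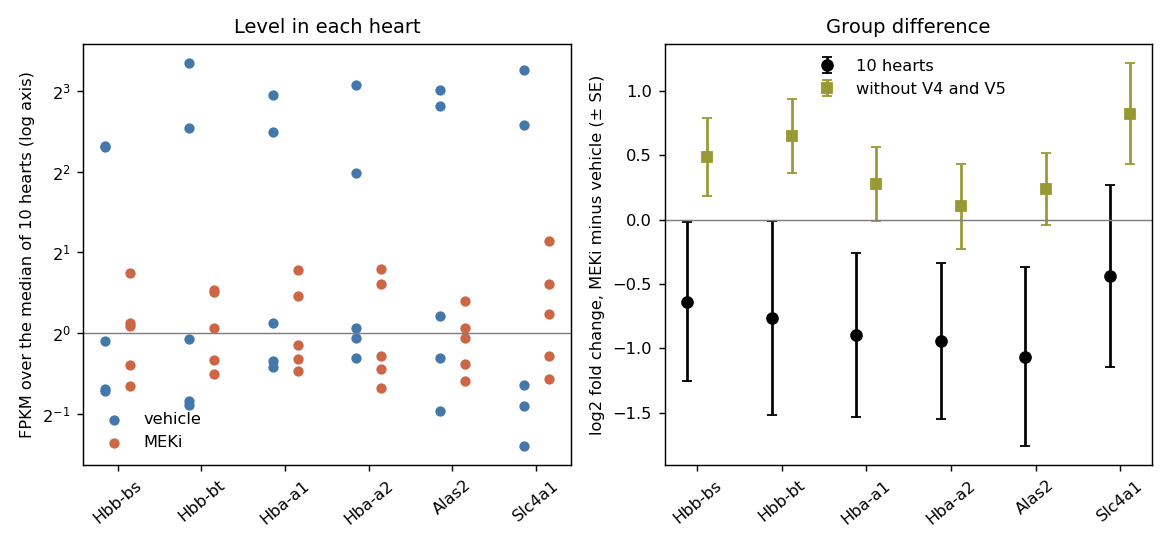
Left, FPKM of each gene in each heart divided by its median over the 10 hearts (log axis; blue, vehicle; orange, MEKi). Right, log2 fold change of MEKi against vehicle with SE from limma, over 10 hearts (circles) and without vehicle hearts 4 and 5 (squares). All 6 estimates are below 0 with these hearts and above 0 without them. These hearts were the highest for all 6 genes, so leaving them out was bound to raise each estimate.

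The within-group SD on the log2 scale was 1.17 for Hbb-bs, 1.44 for Hbb-bt, 1.21 for Hba-a1, 1.16 for Hba-a2, 1.32 for Alas2 and 1.29 for Slc4a1, against a median of 0.246 over the genes tested. The 6 genes ranked between 175 and 278 of 12602 for this spread. From the lowest to the highest heart, Hbb-bs spanned 8.19-fold and Slc4a1 spanned 25.1-fold, with the other genes in between. Within the MEKi group alone the span was 1.98-fold for Alas2 and 3.27-fold for Slc4a1, the extremes of the 6 genes.

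The globin share of each library followed the same pattern. The 4 globin genes took 0.227, 0.353, 0.207, 1.78 and 1.99% of the fragments in vehicle hearts 1 to 5. In MEKi-treated hearts 1 to 5 they took 0.237, 0.419, 0.564, 0.255 and 0.364%. The 95% Wilson intervals were 1.77 to 1.78% in vehicle heart 4 and 1.99 to 2.00% in vehicle heart 5, and cover counting error only. Libraries held from 13647167 to 18474002 fragments, with 14228729 and 14591135 in vehicle hearts 4 and 5. Mitochondrial transcripts took 30.3 and 31.1% of those libraries, within the range of 24.0 to 35.0% over the 10 hearts.

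The 6 genes varied together across hearts. Over the 10 hearts, the 15 pairs had Pearson r of log2(FPKM + 0.1) from 0.87 to 0.98 (median, 0.97). Vehicle hearts 4 and 5 form a separate cluster that sets much of this value. In the other 8 hearts, r ranged from 0.48 for Hbb-bt with Hba-a2 to 0.93 for Hbb-bs with Hbb-bt (median, 0.81), and Spearman's rho from 0.31 to 0.98 (median, 0.79). Hbb-bs and Hba-a1, on different chromosomes, had r = 0.92 in those 8 hearts, and Hba-a1 and its copy Hba-a2 also had r = 0.92. All points share 1 library per heart and its scaling, and the copies share stretches of sequence, so these values are a description.

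Ratios between the genes within a heart moved far less than their levels. Since the genes were picked for varying together in these same hearts, narrow ratios follow from that choice and are a description. The tests of ratios between groups carry the same limit. The ratio of total alpha-globin to total beta-globin FPKM was 0.579, 0.516, 0.547, 0.459 and 0.683 in vehicle hearts and 0.497, 0.562, 0.459, 0.465 and 0.362 in MEKi-treated hearts, a span of 1.89-fold. Vehicle hearts 4 and 5, alike in beta-globin level, lay at the lowest and the highest vehicle value of this ratio. The log2 ratio differed by -0.25 between groups (two-sided exact permutation test over hearts, p = 0.119, adjusted p = 0.298 over 5 ratios).

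The ratio of Alas2 to total beta-globin was 0.00621, 0.00896, 0.00957, 0.00958 and 0.0116 in vehicle hearts. In MEKi-treated hearts it was 0.00873, 0.00639, 0.00575, 0.00634 and 0.00692. Vehicle hearts 4 and 5 were at or just above vehicle heart 3 in this ratio (17.7 FPKM of Alas2), with Alas2 itself at 154 and 177 FPKM. The log2 ratio was lower by 0.41 in the MEKi group (exact permutation p = 0.0714, adjusted p = 0.298), and the groups overlapped. The ratio of Slc4a1 to total beta-globin was higher by 0.21 on the log2 scale with MEKi (exact permutation p = 0.262, adjusted p = 0.437), with a span of 1.91-fold over the hearts. That difference was 0.09 without vehicle heart 2, 0.33 without vehicle heart 4 and 0.30 without a pseudocount. The span was taken with 0.1 FPKM added to each gene and is wider without it. Slc4a1 itself was at only 0.170, 0.142 and 0.101 FPKM in vehicle hearts 1 to 3.

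The beta-globin copy Hbb-bt was at 0.158 of Hbb-bs in vehicle heart 4 and at 0.0665 to 0.103 of it in the other 9 hearts. In the same heart Hba-a2 was at 0.0528 of Hba-a1, the lowest of the 10 hearts, where the others ranged from 0.0614 to 0.0966. Neither ratio differed between groups beyond the spread of the hearts (exact permutation, adjusted p = 0.770 for both). The smallest p this design allows is 0.00794. Vehicle hearts 4 and 5 shared a high level but not the same proportions of globin copies, within the uncertainty of reads shared by the copies.

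**Figure D3:**
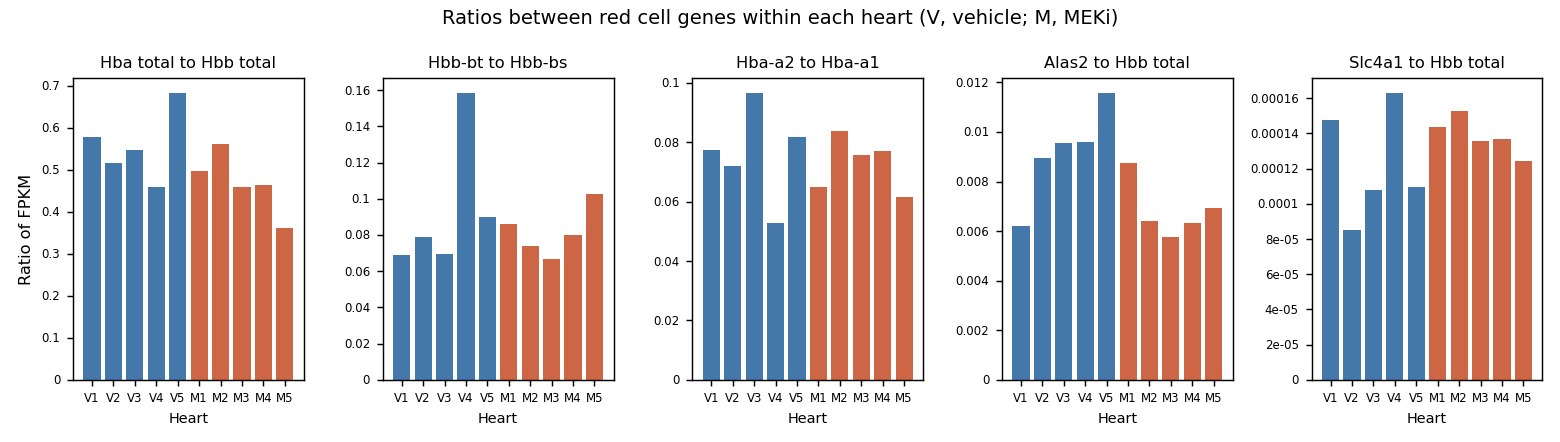
Ratio of FPKM between red cell genes within each heart, with 0.1 FPKM added to each gene. There is 1 panel per ratio, with bars starting at 0 (V is vehicle, in blue, and M is MEKi, in orange). V4 is the highest for Hbb-bt to Hbb-bs, at 0.158, and the lowest for Hba-a2 to Hba-a1, at 0.0528, and V5 is the highest for Hba to Hbb, at 0.683, and for Alas2 to Hbb, at 0.0116.

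Other genes of red cells and of further cell types were taken from 13 lists of known function, chosen with earlier results of these hearts known, of which no gene passed the test between groups (limma, adjusted p; at an unadjusted p under 0.05, 3 neutrophil and 3 macrophage markers and at most 1 gene of any other list, beside 7.62% of all genes tested). Of 16 measured transcripts known to persist in reticulocytes, 14 passed the minimum, and vehicle hearts 4 and 5 were the highest 2 hearts for 9 of these 14 (against 3.89% of all genes tested). By log2 fold change 3 of the 14 were higher and 11 lower with MEKi (0 called; median, -0.23). The most abundant of the list are not particular to red cells: Ubb, a ubiquitin gene, ranged from 187 to 248.8 FPKM in the other 8 hearts and was at 281 and 246 FPKM in vehicle hearts 4 and 5, and Gpx1, a glutathione peroxidase, was at 184 and 150 FPKM there against at most 131 FPKM. Fech, the last enzyme of haem synthesis and also in the haem list, was at 51.4 and 47.8 FPKM in vehicle hearts 4 and 5 against 33.8 to 48.6 FPKM.

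Of 22 measured red cell membrane and enzyme genes, 13 passed the minimum, and 3 of these 13, Epb41 and Bpgm among them, were highest in vehicle hearts 4 and 5. The remaining 1 of the 3 reached the minimum only through these hearts. By log2 fold change 6 of the 13 were higher and 7 lower with MEKi (0 called; median, -0.01). Epb41, which encodes a protein of the red cell membrane skeleton and is also made in heart tissue, was at 8.27 and 7.39 FPKM in vehicle hearts 4 and 5 and at no more than 5.59 FPKM elsewhere. Aqp1, a water channel of red cells that is also made by endothelium, was at 179 and 230 FPKM in vehicle hearts 4 and 5 and from 107 to 206 FPKM elsewhere. Epb41 is named after its values were seen.

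Of 9 other globin genes, the embryonic genes Hbb-bh1, Hbb-bh2 and Hba-x (named after their values were seen) had 0 fragments in all 10 hearts, where 3 fragments would amount to between 0.179 and 0.386 FPKM. The theta-globin Hbq1b was at 1.78 and 2.18 FPKM in vehicle hearts 4 and 5 and at most 0.939 FPKM elsewhere, from no more than 23 fragments. Myoglobin (Mb), the oxygen store of heart muscle, ranged from 4157 to 6450 FPKM over the other 8 hearts, with vehicle hearts 4 and 5 inside that range at 5387 and 4737 FPKM. Its r with the mean z-score of the 6 genes was -0.36 over the 10 hearts.

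Of the erythroid transcription factor genes, those most specific to blood cells had few fragments and others were well detected. The erythroid factor gene Klf1 had at most 4 fragments in any heart. Gata1, the factor that switches on globin and Alas2 and is also used by megakaryocytes and mast cells, had 7 and 14 fragments in vehicle hearts 4 and 5 and at most 5 elsewhere. Of 12 erythroid transcription factor and receptor genes, 6 passed the minimum, of which 1 was higher and 5 were lower with MEKi (0 called; median, -0.16). Tal1, a factor gene of blood and endothelial cells, was highest in vehicle hearts 4 and 5, at 2.03 and 2.21 FPKM against at most 1.49 FPKM. Lmo2 and Ldb1, cofactor genes that other cells also express, were at 16.9 ± 2.87 and 11.7 ± 1.56 FPKM with vehicle (SD, n = 5). Klf1, Gata1 and Tal1 are named after their values were seen. Of 19 haem and iron genes past the minimum, 10 were higher and 9 lower (0 called; median, 0.01). Fth1 and Ftl1, the ferritin chains that store iron in all cells, were inside the range of the other 8 hearts in vehicle heart 4, at 2206 and 201 FPKM. In vehicle heart 5 Ftl1 was at 270.1 FPKM, above the highest of those 8 hearts, 209 FPKM.

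The 10 genes most like the set, by Pearson r with the mean z-score of the 6 genes over 10 hearts, included Ube2l6, Bpgm, Tent5c, Mkrn1, Isg20, Bnip3l, Slc25a37, Fam114a1 and Gm22572. Of the 10 genes, 8 were in the lists above. Their r ranged from 0.99 to 0.94 over 10 hearts, which again rests largely on vehicle hearts 4 and 5. Over the other 8 hearts r was 0.87 for Ube2l6, 0.85 for Bpgm and 0.59 for Bnip3l. The small nuclear RNA gene Gm22572 had at most 5 fragments, all of them in vehicle hearts 4 and 5, so its likeness has no basis in the rest.

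Bpgm, which makes the red cell metabolite that lowers the oxygen affinity of haemoglobin, was at 50.2 and 57.9 FPKM in vehicle hearts 4 and 5 and between 7.65 and 14.9 FPKM in the other 8. Tent5c, which encodes a poly(A) polymerase, was at 10.4 and 9.60 FPKM against 1.009 to 2.51 FPKM. Ube2l6, which encodes an enzyme that attaches the ubiquitin-like modifier ISG15, was at 49.1 and 58.3 FPKM against 7.43 to 14.8 FPKM. Slc25a37, the mitochondrial iron importer mitoferrin of erythroid cells, was at 6.60 and 6.45 FPKM against 2.08 to 3.27 FPKM. None of the 10 passed the group comparison.

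**Figure D4:**
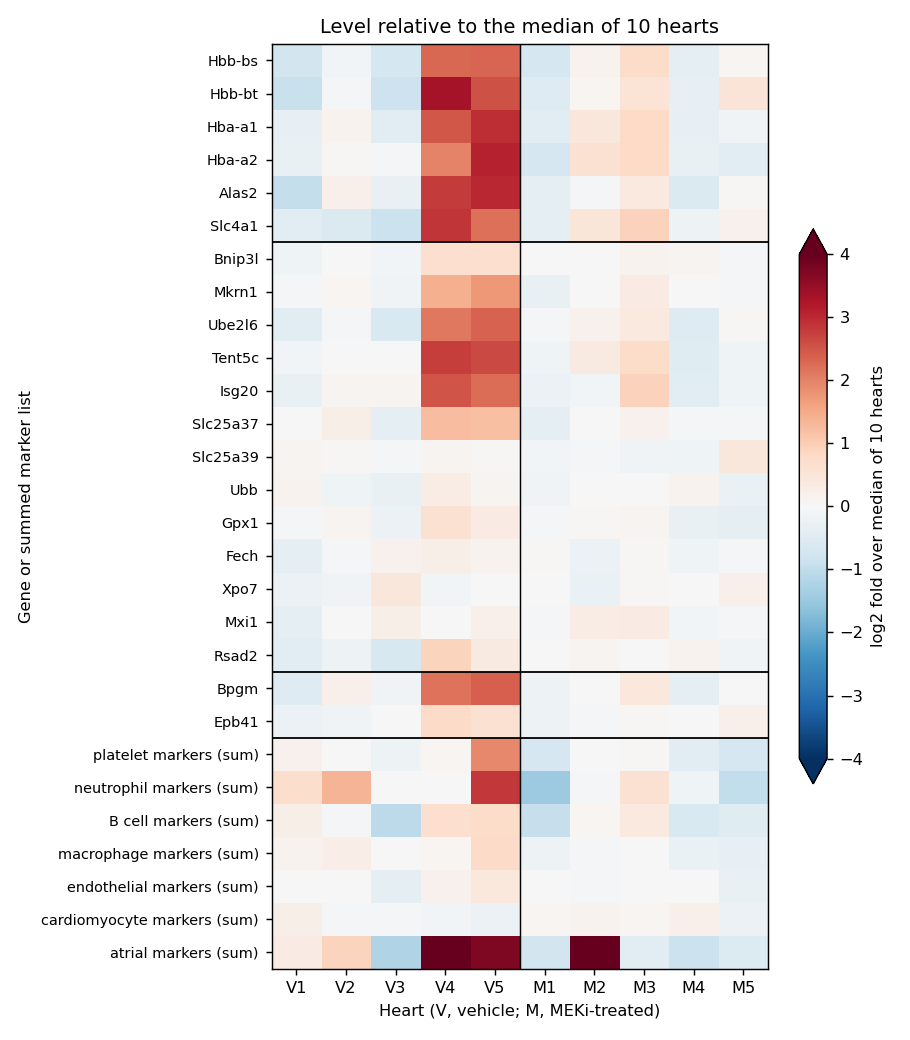
Level in each heart relative to the median of the 10 hearts, as log2 of FPKM + 0.1, for the 6 genes, 13 of the 14 reticulocyte transcripts past the minimum, 2 red cell membrane and enzyme genes, and the summed FPKM of 7 marker lists (colour scale ends at 4 in both directions; V, vehicle; M, MEKi). The top rows and 8 of the 13 reticulocyte transcripts drawn are highest in V4 and V5, platelet and neutrophil sums in V5, and atrial sums in V4, V5 and M2.

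Platelet and neutrophil marker sums were high in vehicle heart 5 and not in vehicle heart 4, whereas the B cell marker sum was highest in both. Platelet markers summed to 159 FPKM in vehicle heart 5 and to 44.5 FPKM in vehicle heart 4, against 26.4 to 47.4 FPKM in the other 8 hearts. The platelet chemokine gene Ppbp was nevertheless highest in both, at 4.84 and 34.3 FPKM against at most 2.77 FPKM. Pf4, the most abundant platelet marker, was at 91.4 FPKM in vehicle heart 5. In vehicle heart 4 it was at 32.4 FPKM, inside the 24.6 to 42.2 FPKM of the other 8 hearts. Vehicle hearts 4 and 5 were the highest 2 for 4 of the 7 platelet markers tested, 1 of which reached the minimum only through them. The same held for 2 of the 5 B cell markers tested (3.89% of all genes tested). It also held for 4 of 8 endothelial and 1 of 5 atrial markers. The count was 1 of 19 for haem and iron genes, and 0 for neutrophil, T cell, macrophage and cardiomyocyte markers. Neutrophil markers summed to 99.5 FPKM in vehicle heart 5 and 14.3 FPKM in vehicle heart 4, against 5.09 to 36.1 FPKM elsewhere, and the neutrophil marker Ly6g, named after its values were seen, was at 0 in all hearts. Of the markers tested, 7 of 7 for platelets and 6 of 6 for neutrophils were lower with MEKi by log2 fold change, with medians of -0.93 and -1.59 and 0 called in either list. B cell markers summed to 38.8 and 40.4 FPKM in vehicle hearts 4 and 5, above the 11.6 to 32.0 FPKM of the others, and T cell markers to 3.85 and 5.70 FPKM, inside a range of 0.624 to 8.13 FPKM. The B cell median log2 fold change was -0.21 (5 of 5 lower, 0 called), and that of T cells was 0.66 (2 of 3 higher, 0 called).

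Markers of heart tissue also differed between hearts. Atrial markers, led by the atrial myosin light chain gene Myl7, summed to 898 and 423 FPKM in vehicle hearts 4 and 5, to 740 FPKM in MEKi-treated heart 2 and to 13.7 to 59.0 FPKM in the other 7. MEKi-treated heart 2 had no such high level of red cell genes, with Hbb-bs at 3079 FPKM. All 5 atrial markers tested were lower with MEKi by log2 fold change (0 called; median, -2.23). Endothelial markers summed to 190 and 228 FPKM in vehicle hearts 4 and 5 against 133 to 172 FPKM elsewhere, macrophage markers to 484 and 778 FPKM against 365 to 549 FPKM, and cardiomyocyte markers to 16476 and 15161 FPKM against 14988 to 20819 FPKM. Their median log2 fold changes were -0.11 (7 of 8 lower), -0.36 (8 of 8 lower) and 0.14 (6 of 8 higher), with 0 called in each list. What part these other cell types and the atrial transcripts had in the red cell values was not tested.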

How the data were processed

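Messenger RNA of 10 hearts was selected with poly-T beads and sequenced. The authors deposited FPKM per gene and heart, and their processing notes name fastp, STAR 2.5, HTSeq 0.6.1 and mm10, and the annotation, strand setting, read length and rule for shared reads were not given in the sources used here. The product of deposited FPKM and gene length rose in whole steps in each heart (tolerance, 0.0001), which gave the fragments. The 6 genes and all lists were chosen with earlier results of these data known. Genes named beyond the 6 are the 4 most abundant of a list, the 10 most like the set, and others marked as named after seeing their values. Xist and Ddx3y are named for the X- and Y-linked transcripts.

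log2(FPKM + 0.1) was compared with limma 3.58.1 in R 4.3.3 (eBayes with trend, two-sided, Benjamini-Hochberg, threshold 0.05, minimum mean of 0.5 FPKM), and ratios by exact permutation over hearts, in Python 3.11.15 with scipy 1.17.1. Fold changes are on this scale, and that of the low gene Slc4a1 moved with the pseudocount (-0.44 at 0.1, -0.37 at 0.01). The fit was tested on simulated data. Alternatives changed the pseudocount, minimum, scaling, model and hearts. The labels call the hearts biological replicates. Promoter windows came from RefSeq (GRCm38.p6; 5 of 6 genes matched). Some genes of the lists are not reported here by name.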

Additional observations from a re-analysis of the deposited data

Results flagged for a closer look

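Of 48 sets of 5 hearts examined (a gene, ratio or marker sum in 1 group), 5 held a heart far from the other 4, where chance at 1 in 20 would give about 2.4. The sets share hearts and genes, and the marker sums were not on a log scale, so 5 beside 2.4 is no test of an excess. The ratio of Hbb-bt to Hbb-bs was 0.158 in vehicle heart 4 and 0.0689 to 0.0901 in the other vehicle hearts. The platelet marker sum was 159 FPKM in vehicle heart 5 against 37.1 to 47.4 FPKM. The neutrophil marker sum was 99.5 FPKM in vehicle heart 5 against 13.7 to 36.1 FPKM. The endothelial marker sum was lowest in MEKi-treated heart 5, at 137 FPKM against 163 to 172 FPKM. The atrial marker sum was 740 FPKM in MEKi-treated heart 2 against 17.5 to 23.8 FPKM. None of the 6 genes was singled out by its level, since the gap from each highest vehicle heart to the next was not large enough beside the range of its group.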

How the results depend on the processing

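None of the 6 genes passed under any of 23 alternatives (lowest limma adjusted p, 0.463), although 2 of those fits gave an unadjusted p under 0.05. Of the 136 results of single genes under alternatives, 129 kept their direction and side of the threshold. Leaving out vehicle hearts 4 and 5 together, added after seeing the data, reversed all 6 genes, to log2 fold changes of 0.28 for Hba-a1, 0.10 for Hba-a2, 0.49 for Hbb-bs, 0.65 for Hbb-bt, 0.24 for Alas2 and 0.82 for Slc4a1 (median, 0.38). Leaving these hearts out was bound to raise each estimate, since they were the highest for all 6 genes. It also lowered the smallest pairwise r to 0.48. With 1 heart left out at a time, the median over the genes ranged from -1.21 to -0.37, and Slc4a1 ranged from -0.81 to 0.12, reversing without vehicle heart 4. The ratio of Hbb-bt to Hbb-bs ranged from -0.22 to 0.083 (log2), reversing without vehicle heart 4, and was 0.16 without both hearts. The ratio of Hba-a2 to Hba-a1 ranged from -0.18 to 0.043, reversing without vehicle heart 3 and without MEKi-treated heart 5. The ratio of Slc4a1 to total beta-globin ranged from 0.09 to 0.33. Over all genes, the 10 calls became 2 with a mean of at least 5 FPKM, 18 with array weights, 4 with the replicate block, 5 without both hearts, and 5 (without vehicle heart 2) to 13 with 1 heart left out. Without X, Y and mitochondrial genes 0 passed in limma (924 at an unadjusted p under 0.05), against 9 over all genes with voom. The replicate number did not pair the hearts (r of same-numbered deviations, -0.15 to -0.02) and the block changed no call of the 6 genes. The cause of these shifts was not tested. Depth limits Slc4a1, which had as few as 7 fragments.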

Other observations

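Some transcripts ran opposite to the red cell genes. The 5 genes with the lowest Pearson r with the mean z-score of the set over 10 hearts, named after their values were seen, were Ppp2r1a, Plpp7, Dcaf11, Slc25a3 and Tmem201, with r from -0.96 to -0.92. Ppp2r1a, a scaffold subunit of protein phosphatase PP2A, was at 41.2 and 39.2 FPKM in vehicle hearts 4 and 5 and from 45.3 to 52.4 FPKM in the other 8. Slc25a3, the mitochondrial phosphate carrier, was at 259.8 and 237 FPKM against 286 to 336 FPKM. In those 8 hearts r was -0.79 for Ppp2r1a and -0.65 for Slc25a3. These differences were small beside those of the red cell genes, and were not tested.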
